A study of Mus musculus with 53 samples.

Results

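The genes described here are 10 markers and drivers of the epithelial-mesenchymal transition (EMT): the transcription factor genes Snai1, Snai2, Twist1, Twist2, Zeb1, Zeb2 and Prrx1, the cadherin genes Cdh1 and Cdh2, and Epcam. They were chosen by name, with earlier results of these data known, so counts of them are a description. All 10 were found among the 43432 Ensembl genes of each of 2 RNA tables. All libraries came from mouse embryonic fibroblasts (MEFs), either wild type (WT) or labelled as knocked out (KO) for Anp32e, whose protein is a chaperone that removes the histone variant H2A.Z from chromatin. One table, in FPKM and called the DAC table here, covers the solvent DMSO (2 libraries of WT, 2 of KO) and decitabine, or DAC, which blocks DNA methyltransferases (3 of each genotype). The other, in RPKM and called the siRNA table, covers knockdown of H2A.Z (H2AZ siRNA) and an NT siRNA control in both genotypes, again 3 libraries for each of 4 groups. The labels give no allele, strain, embryo age, number of cell lines per genotype, dose or time. The titles call the replicates biological in 7 of the 8 groups (not in KO H2AZ siRNA) without saying that they were separate cultures, so p-values measure only the spread between these libraries, which may be technical.

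In EMT, epithelial cells lose the junctions that hold them to their neighbours and take on the shape and motility of mesenchymal cells. Proteins of the Snail and Zeb families bind E-box sequences and repress epithelial genes, above all Cdh1, while the Twist proteins and Prrx1 act in mesenchymal programmes of the embryo. E-cadherin, the product of Cdh1, and Epcam are hallmarks of epithelial cells, N-cadherin, the product of Cdh2, is a hallmark of mesenchymal and neural cells, and a shift from one cadherin to the other is the classical sign of EMT. Fibroblasts are mesenchymal cells, so they normally carry the factors and little Cdh1.

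The DAC libraries held 27503472 to 36910532 reads and the siRNA libraries 31928320 to 47172427. Anp32e was at 14.0 to 17.2 FPKM in WT and 4.87 to 7.48 FPKM in KO libraries, and at 16.9 to 21.4 and 4.36 to 6.12 RPKM in the siRNA table, so its transcript was lower but present in every KO library. Of 12 fibroblast markers, 10 or 11 had a group mean of at least 1 in each group. The Y-linked genes Ddx3y, Uty, Kdm5d and Eif2s3y were at 0 to 0.0720 in WT and 1.14 to 7.98 in KO libraries. In the DAC table Xist was at 136 to 210 FPKM in WT libraries, 0.579 to 0.923 in KO DMSO and 28.5 to 44.4 in KO DAC. WT cells thus carried the transcripts of female cells and KO cells the Y-linked transcripts of male cells. With DAC the KO cells carried Xist as well, and the reason was not tested. Genotype and sex of the cells cannot be told apart in any comparison of KO with WT. WT DAC replicate 3 and KO DAC replicate 1, and in the siRNA table WT NT replicate 1 and KO NT replicate 1, stood apart from the other libraries of their groups. Leaving out both of a table together ended 2 of the members' calls, named below.

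By FPKM, which is scaled to gene length, the mean of 8 of the 10 genes was above 3 in every group of the DAC table. In WT DMSO the order of the means was Snai2 (59.98 FPKM), Prrx1 (49.4), Twist1 (39.9), Snai1 (20.3), Cdh2 (19.0), Zeb1 (18.4), Twist2 (6.70), Zeb2 (5.84), Cdh1 (0.168) and Epcam (listed at 0 in both libraries). The libraries of Snai1 and Cdh2, and of Cdh2 and Zeb1, overlapped in this order, and those of the other neighbours did not. In KO DMSO, Prrx1 (34.6 FPKM) stood first and Snai2 (29.2) next, followed by Cdh2 (22.9), Snai1 (21.0) and Twist1 (19.0), while Cdh1 (3.34) had come up to Twist2 (3.36), whose libraries it overlapped. The summed level of the 7 factors was 200 and 201 FPKM in the WT DMSO libraries and 123 and 124 FPKM in KO DMSO. With DAC the sums were 150 to 169 FPKM in WT and 148 to 160 FPKM in KO, which overlapped. RPKM values were normalised apart from these and are not set against them. By RPKM, Cdh2 led in WT NT (18.5 RPKM) and Twist1 in KO NT (19.9 RPKM). Snai2 was there at 3.65 RPKM in WT NT and 3.02 RPKM in KO NT and overlapped Twist2 in both. In the siRNA table the 7SL RNA genes took 14.1 to 16.3% of the reads in WT and 17.95 to 21.6% in KO. Every KO library there was above every WT library. With DMSO or DAC they took 1.27 to 1.69% in WT and 0.953 to 1.44% in KO. Their part in the level of any member, or in its difference between KO and WT, was not tested.

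**Figure D1:**
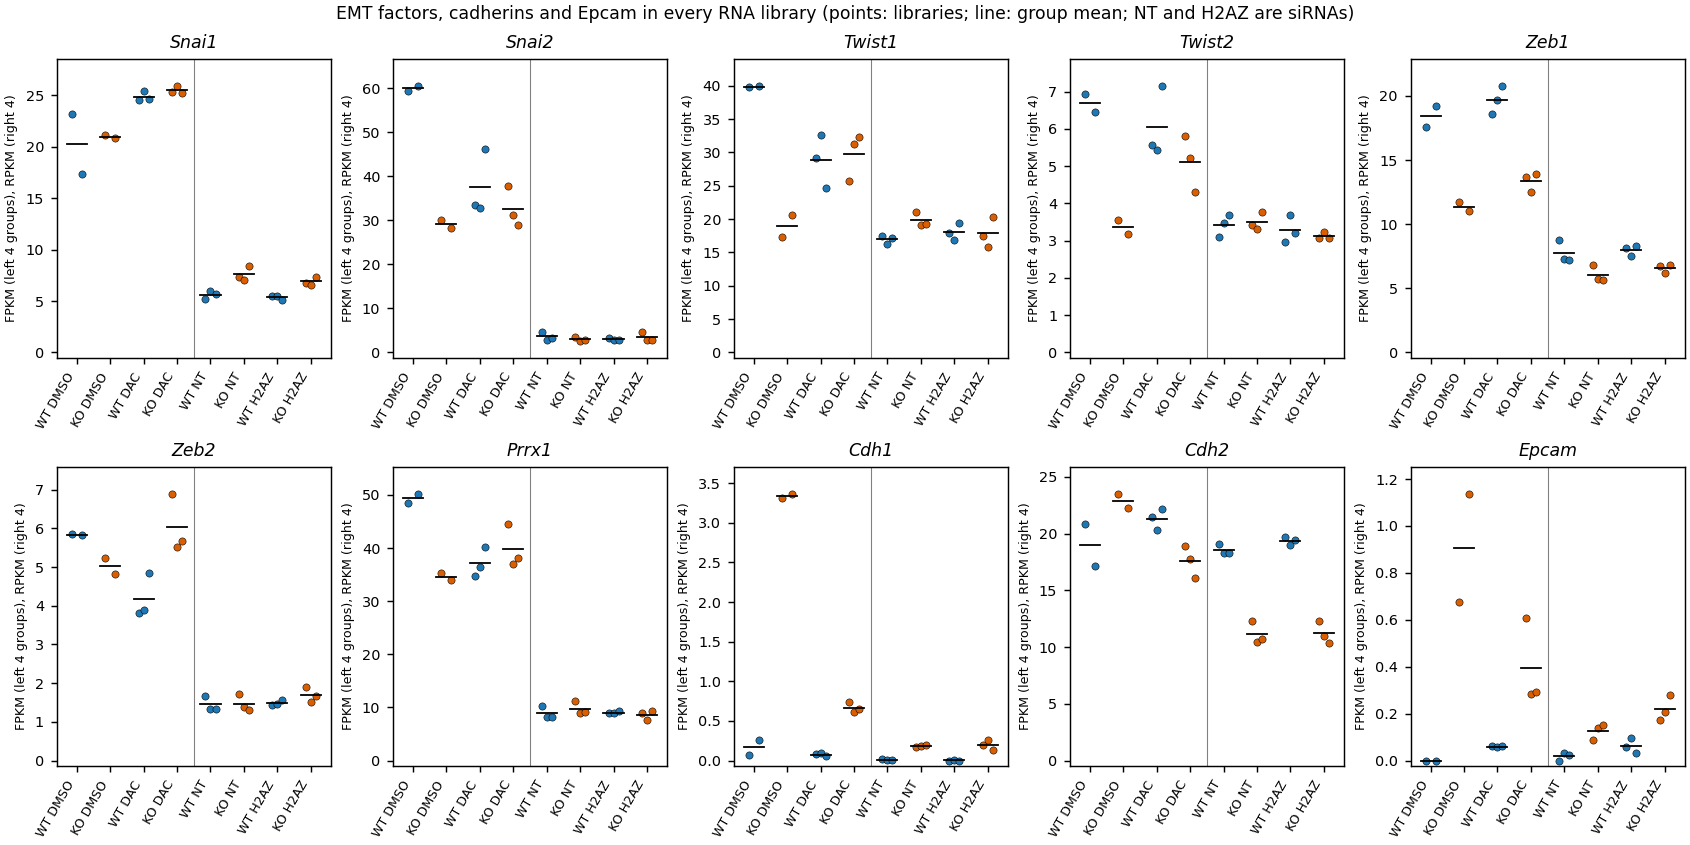
Level of each gene in every library. The horizontal axis gives the 8 groups, the vertical axis FPKM for the 4 groups left of the grey line (DAC table) and RPKM for the 4 right of it (siRNA table), points are libraries (blue WT, orange KO) and lines are group means. Snai2, Twist1, Twist2, Zeb1 and Prrx1 sit lower in KO DMSO than in WT DMSO, Cdh1 sits at 3.31 and 3.37 FPKM in KO DMSO and below 0.3 FPKM in WT, and Cdh2 is lower in KO than in WT in the siRNA groups.

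The comparison of KO with WT asks how loss of Anp32e goes with the level of these genes. In DMSO, 5 of the 7 factors were lower in KO: Snai2, Twist1, Twist2, Zeb1 and Prrx1. None was higher, and Snai1, Zeb2 and Cdh2 did not pass the test. These 5 of 8 tested genes stand beside 42.5% of all 16435 tested genes called by limma (adjusted p under 0.05) in this comparison. With DAC, 2 of 8 were called, a count near the share of all tested genes (22.7%): Zeb1 was lower and Zeb2 higher in KO. Cdh1 was fitted too, but it passed the filter on low values (at least 1 in at least 2 libraries) only through KO DMSO, where it was high, so it is left out of these counts and its values are given as a description. With NT siRNA, 4 of 8 were called (64.1% of 12668 tested genes): Snai1 and Twist1 were higher, and Zeb1 and Cdh2 lower. With H2AZ siRNA, 3 of 8 were called (62.9%): Snai1 was higher, and Zeb1 and Cdh2 lower. The counts of 4 of 8 and 3 of 8 are no larger than these background shares. In bulk libraries such as these, fewer cells of a type and less RNA per cell cannot be told apart. Zeb1 was the one member called in the same direction under all 4 conditions, though its last call ended on median centring, as given below.

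**Figure D2:**
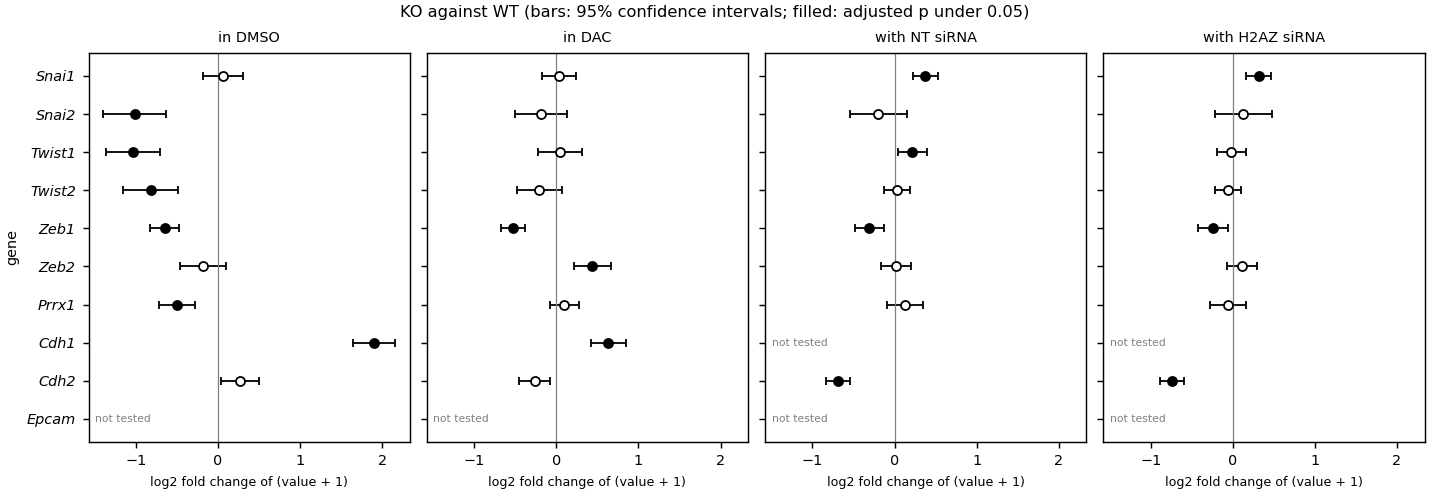
Differences between KO and WT. The horizontal axis is the log2 fold change of the value plus 1 from limma, with its 95% confidence interval as a bar, 1 panel for each condition and 1 row for each gene; filled points had an adjusted p under 0.05. Twist1 and Snai2 lie near -1 in DMSO and near 0 in DAC, and Cdh2 lies at -0.69 and -0.74 with the siRNAs. Cdh1 entered the fit only through KO DMSO, so its filled points are no support.

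The 2 comparisons of DAC with DMSO ask how the members respond to the inhibitor in each genotype. In WT, Snai2, Twist1, Zeb2 and Prrx1 fell, 4 of 8 tested genes beside 28.3% of all genes. In KO, Twist1, Twist2 and Zeb1 rose and Cdh2 fell, 4 of 8 beside 45.2% of all genes, a count near that share. The difference between the 2 responses was itself tested, as the DAC effect in KO minus that in WT, and passed for 6 of 8 members beside 24.1% of all genes, Cdh1 again left out. It was positive for Snai2, Twist1, Twist2, Zeb2 and Prrx1 and negative for Cdh2. Snai1 and Zeb1 did not pass. The 5 positive differences start from KO DMSO libraries that were lower than, or for Zeb2 not called different from, WT DMSO, and the same DMSO libraries enter both comparisons.

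**Figure D3:**
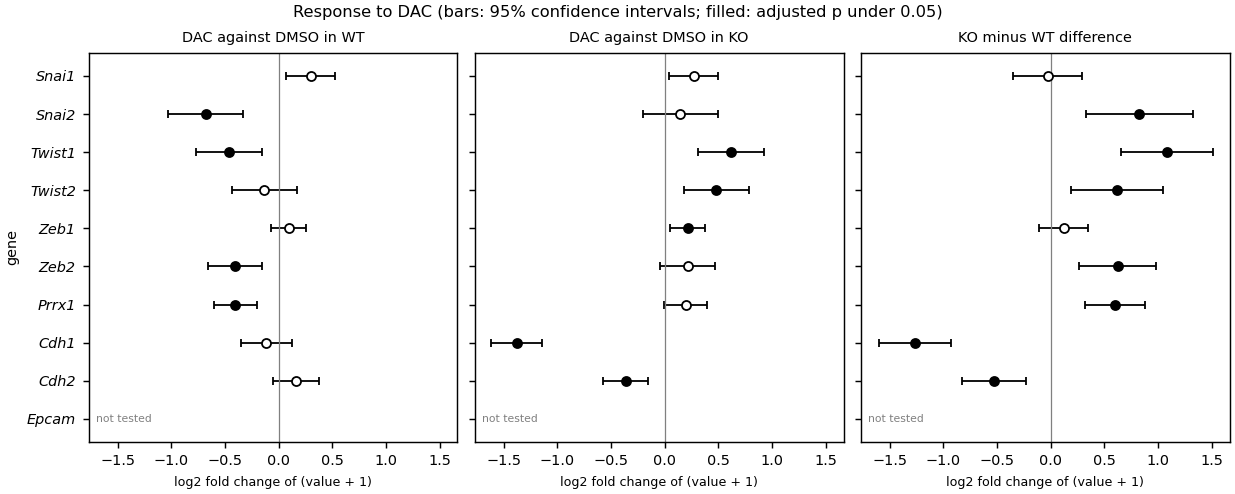
Response to DAC. The panels give the log2 fold change of the value plus 1 with its 95% confidence interval for DAC against DMSO in WT, in KO, and for the KO response minus the WT response; filled points had an adjusted p under 0.05. Twist1 lies at -0.46 in WT and at 0.62 in KO. Cdh1, at -1.38 in KO, entered the fit only through KO DMSO, so its filled points are no support.

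With H2AZ siRNA against NT siRNA, limma called none of the 8 tested members in WT (15.3% of all genes were called) and none in KO (25.5%). No member had an unadjusted p under 0.05 in either genotype. Nor did any member pass for the KO minus WT difference of this response, where 1 gene of 12668 was called (0.00789%) and 1095 had an unadjusted p under 0.05. Voom, a count-based form of limma run on recovered reads, called no member in these 3 comparisons either. The widest 95% intervals of the responses were those of Snai2, from -0.56 to 0.15 on the log2 scale in WT and from -0.23 to 0.47 in KO. Those of Cdh2 were from -0.09 to 0.21 in WT and from -0.14 to 0.16 in KO.

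Snai1 (ENSMUSG00000042821, chromosome 2, 167538195 to 167542814 in GRCm38) encodes Snail, a zinc finger repressor that starts EMT in the gastrula and neural crest. It was at 23.2 and 17.3 FPKM in the WT DMSO libraries, 21.1 and 20.8 in KO DMSO, 24.6, 25.4 and 24.7 in WT DAC, and 25.3, 25.9 and 25.2 in KO DAC. All DAC libraries lay above all DMSO libraries, and WT and KO overlapped. The DAC difference was 0.30 ± 0.10 (log2 fold change ± standard error) in WT and 0.27 ± 0.10 in KO, with limma adjusted p = 0.0544 in both, just outside the threshold. Both passed with voom (adjusted p = 0.0348 and 0.0404). In WT the pair of DMSO libraries was wide, and without WT DMSO replicate 1 the difference was 0.50 (adjusted p = 0.00135). With the siRNAs Snai1 was at 5.18, 5.98 and 5.71 RPKM in WT NT, 7.37, 7.04 and 8.40 in KO NT, 5.50, 5.47 and 5.10 in WT H2AZ siRNA, and 6.80, 6.58 and 7.34 in KO H2AZ siRNA. Every KO library was above every WT library. KO was higher by 0.38 ± 0.07 with NT siRNA (limma adjusted p = 0.000604) and by 0.31 ± 0.07 with H2AZ siRNA (adjusted p = 0.00208). On median centring these differences were 0.50 and 0.47. In DMSO the same contrast was 0.06 ± 0.11 (adjusted p = 0.686), and 0.26 (adjusted p = 0.0148) without WT DMSO replicate 1.

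The promoter of Snai1 is shown because Snail proteins are known to bind the E-box letters CAGGTG, and Snai1 is known to act on its own promoter. RefSeq promoters of GRCm38.p6, 250 bases before to 50 after a start, were matched for 6 of the 10 genes (9 windows, since Zeb2 has 4): Snai1, Twist1, Twist2, Zeb2, Prrx1 and Epcam. No entry was matched for Snai2, Zeb1, Cdh1 or Cdh2. CAGGTG on either strand (CACCTG on the printed one) was found in 20.2% of all 32851 promoter windows and in 2 of these 9, those of Snai1 and Epcam. It is part of the wider E-box pattern CANNTG, found in 72.3% of all windows and in the same 2. Capitals mark CACCTG, at base 125 of the window (chr2:167537945-167538244, plus strand).
Snai1 promoter: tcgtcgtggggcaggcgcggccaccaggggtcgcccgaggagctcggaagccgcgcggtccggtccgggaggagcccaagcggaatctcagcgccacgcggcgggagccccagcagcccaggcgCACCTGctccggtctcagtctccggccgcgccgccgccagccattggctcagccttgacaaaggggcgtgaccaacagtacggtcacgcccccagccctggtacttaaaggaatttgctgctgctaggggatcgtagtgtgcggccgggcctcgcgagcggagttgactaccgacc

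Snai2 (ENSMUSG00000022676, chromosome 16, 14705852 to 14709395) encodes Slug, the second Snail repressor, known from neural crest and from fibroblasts. It was at 59.4 and 60.6 FPKM in WT DMSO, 30.1 and 28.3 in KO DMSO, 33.5, 32.8 and 46.3 in WT DAC, and 37.7, 31.2 and 28.9 in KO DAC. The 2 WT DMSO libraries stood above all others, KO DMSO lay below WT DAC, and KO DAC overlapped both. KO was lower than WT in DMSO by a log2 fold change of -1.01 ± 0.17 (limma adjusted p = 0.00136). In DAC the difference was -0.19 ± 0.14 (adjusted p = 0.380). DAC lowered it in WT (-0.68 ± 0.15, adjusted p = 0.0113), while in KO the change was 0.15 ± 0.15 (adjusted p = 0.480). The difference of the responses was 0.82 ± 0.22 (adjusted p = 0.0254). The fall in WT did not pass without WT DMSO replicate 1 (adjusted p = 0.0553) or replicate 2 (0.0753), and the difference of the responses did not pass without any 1 of the 4 DMSO libraries, WT DAC replicate 1 or WT DAC replicate 2 (0.0519 to 0.0912). Under siRNA treatment it was at 4.66, 2.90 and 3.38 RPKM in WT NT, 3.59, 2.66 and 2.82 in KO NT, 3.18, 2.93 and 2.84 in WT H2AZ siRNA, and 4.57, 2.78 and 2.91 in KO H2AZ siRNA. All 4 groups overlapped and no comparison passed. Snai2 made up 71.9 and 77.8% of the summed level of both Snail genes in WT DMSO, 57.6 and 58.8% in KO DMSO, 56.4 to 65.2% in WT DAC and 53.4 to 59.9% in KO DAC.

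Twist1 (ENSMUSG00000035799, chromosome 12, 33957671 to 33959831) and Twist2 (ENSMUSG00000007805, chromosome 1, 91801461 to 91848034) encode related basic helix-loop-helix factors of the embryonic mesoderm, Twist2 also known as Dermo1 from the dermis. Their promoter windows are shown because DAC acts on the methylation of CG dinucleotides, which are in capitals. Both genes rose with DAC in KO, while in WT Twist1 fell and Twist2 was not called. The Twist1 window (chr12:33957421-33957720, plus strand) holds 27 CG dinucleotides, and 84.5% of all windows hold fewer. That of Twist2 (chr1:91801211-91801510, plus strand) holds 25, and 81.6% hold fewer. The Snai1 window printed above holds 34 (92.3% hold fewer) and that of Prrx1 holds 6 (43.6%). Methylation was not measured in the RNA tables used here, and the part of these dinucleotides in the response to DAC was not tested.
Twist1 promoter: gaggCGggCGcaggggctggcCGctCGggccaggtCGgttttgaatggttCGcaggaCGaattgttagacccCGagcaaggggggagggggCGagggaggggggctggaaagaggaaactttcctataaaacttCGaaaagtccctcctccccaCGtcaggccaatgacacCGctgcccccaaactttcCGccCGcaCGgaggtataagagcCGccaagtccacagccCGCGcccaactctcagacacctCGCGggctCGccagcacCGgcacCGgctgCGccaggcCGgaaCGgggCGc
Twist2 promoter: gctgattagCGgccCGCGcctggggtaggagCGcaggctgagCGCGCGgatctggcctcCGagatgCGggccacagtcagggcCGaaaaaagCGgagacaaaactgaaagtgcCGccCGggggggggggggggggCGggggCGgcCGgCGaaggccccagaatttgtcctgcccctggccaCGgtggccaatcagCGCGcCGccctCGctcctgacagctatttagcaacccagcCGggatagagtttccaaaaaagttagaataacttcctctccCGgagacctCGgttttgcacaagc

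Twist1 was at 39.7 and 40.0 FPKM in WT DMSO, 17.4 and 20.6 in KO DMSO, 29.2, 32.7 and 24.6 in WT DAC, and 25.7, 31.2 and 32.3 in KO DAC. The KO DMSO libraries were the lowest and the WT DMSO libraries the highest, with both DAC groups between them and overlapping each other. In DMSO, KO was lower by -1.04 ± 0.15 on the log2 scale (limma adjusted p = 0.000510), and in DAC the difference was 0.04 ± 0.12 (adjusted p = 0.833). DAC lowered Twist1 in WT (-0.46 ± 0.13, adjusted p = 0.0315) and raised it in KO (0.62 ± 0.13, adjusted p = 0.00520), with a difference of responses of 1.08 ± 0.19 (adjusted p = 0.00359). The median of all tested chromosome 12 genes was 0.17 with DAC in KO and -0.25 for KO against WT in DMSO. Minus these medians, Twist1 stood at 0.45 and -0.79. The fall in WT did not pass without WT DMSO replicate 1 (adjusted p = 0.117), WT DMSO replicate 2 (0.142), WT DAC replicate 1 (0.0623) or WT DAC replicate 3 (0.0620), nor with only the groups compared (0.0568) or no filter (0.0569), and the rise in KO not without KO DMSO replicate 1 (0.0544). By RPKM, Twist1 was at 17.4, 16.3 and 17.2 RPKM in WT NT, 21.1, 19.2 and 19.3 in KO NT, 18.0, 16.9 and 19.3 in WT H2AZ siRNA, and 17.5, 15.8 and 20.3 in KO H2AZ siRNA. Only with NT siRNA were the genotypes apart, by 0.22 ± 0.08 (adjusted p = 0.0327). This call ended without WT NT replicate 2 (0.0998), WT NT replicate 3 (0.0571) or KO NT replicate 1 (0.106). It also ended without both libraries that stand apart (0.120) or with no filter (0.0792). On median centring the difference was 0.34 (adjusted p = 0.000628). Minus the chromosome 12 median of -0.19 it was 0.41.

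Twist2 followed Twist1 in DMSO at a lower level. It was at 6.93 and 6.47 FPKM in WT DMSO, 3.56 and 3.17 in KO DMSO, 5.56, 5.44 and 7.16 in WT DAC, and 5.80, 5.23 and 4.31 in KO DAC. KO DMSO was below every other group. KO was lower in DMSO by -0.82 ± 0.15 (limma adjusted p = 0.00195), and DAC raised Twist2 in KO by 0.48 ± 0.13 (adjusted p = 0.0171), a call lost without KO DMSO replicate 2 (0.109). In WT the DAC difference was -0.13 ± 0.13 (adjusted p = 0.506). The difference of the responses, 0.61 ± 0.19 (adjusted p = 0.0448), lost its call under more alternatives than any other member value. It did not pass under 11 of 17 alternatives, among them leaving out any 1 of the DMSO libraries, WT DAC replicate 1, WT DAC replicate 2, KO DAC replicate 1 or KO DAC replicate 2 (0.0732 to 0.147). Over all 12 siRNA libraries Twist2 lay between 2.98 and 3.78 RPKM and no comparison passed. It made up 11.8 to 22.5% of the summed level of both Twist genes by FPKM and 13.1 to 18.0% by RPKM.

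Zeb1 (ENSMUSG00000024238, chromosome 18, 5591327 to 5775468) and Zeb2 (ENSMUSG00000026872, chromosome 2, 44983512 to 45117442) encode zinc finger and homeodomain repressors of Cdh1. Zeb1 was at 17.6 and 19.2 FPKM in WT DMSO, 11.8 and 10.99 in KO DMSO, 18.6, 19.7 and 20.8 in WT DAC, and 13.7, 12.5 and 13.9 in KO DAC. Every KO library was below every WT library. The log2 fold change of KO against WT was -0.65 ± 0.08 in DMSO (limma adjusted p = 0.000201) and -0.53 ± 0.06 in DAC (adjusted p = 0.000611). DAC raised Zeb1 in KO by 0.21 ± 0.07 (adjusted p = 0.0382), a call that ended under 9 of 18 alternatives, among them leaving out KO DMSO replicate 1 (0.0756), KO DMSO replicate 2 (0.217), WT DAC replicate 2 (0.0575), KO DAC replicate 1 (0.0806), KO DAC replicate 3 (0.104) or both libraries that stand apart (0.0556). In WT the change was 0.09 ± 0.07 (adjusted p = 0.380), and the difference of the responses, 0.12 ± 0.10, did not pass (adjusted p = 0.453). The siRNA libraries held Zeb1 at 8.74, 7.28 and 7.22 RPKM in WT NT, 6.83, 5.75 and 5.63 in KO NT, 8.15, 7.53 and 8.30 in WT H2AZ siRNA, and 6.77, 6.20 and 6.85 in KO H2AZ siRNA. Again every KO library was below every WT library given the same siRNA. KO was lower by -0.31 ± 0.08 with NT siRNA (adjusted p = 0.00622) and by -0.24 ± 0.08 with H2AZ siRNA (adjusted p = 0.0221). The median of all tested genes lay at -0.10 and -0.12 in these 2 comparisons. With each library centred on its median, Zeb1 was at -0.18 (adjusted p = 0.00940) and -0.09 (adjusted p = 0.163), so the second call rests on the scaling, and it also ended without WT H2AZ siRNA replicate 1 (0.0623), WT H2AZ siRNA replicate 3 (0.0718) or KO H2AZ siRNA replicate 2 (0.0822).

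Zeb2 was at 5.86 and 5.83 FPKM in WT DMSO, 5.24 and 4.82 in KO DMSO, 3.82, 3.89 and 4.84 in WT DAC, and 6.89, 5.52 and 5.66 in KO DAC. WT DAC had the lowest mean and just reached KO DMSO, and every KO DAC library lay above every KO DMSO and WT DAC library. In DMSO the KO difference was -0.18 ± 0.12 (limma adjusted p = 0.268). In DAC, KO was higher by 0.44 ± 0.10 (adjusted p = 0.0146), which did not pass without WT DAC replicate 1 (0.0530) or replicate 2 (0.0553). DAC lowered Zeb2 in WT by -0.41 ± 0.11 (adjusted p = 0.0263), in KO the change was 0.22 ± 0.11 (adjusted p = 0.152), and the difference of the responses was 0.62 ± 0.16 (adjusted p = 0.0217). The fall in WT did not pass without any 1 of WT DMSO replicates 1 and 2 and WT DAC replicates 1 and 2 (0.0739 to 0.121) or on median centring (0.0521), and the difference of the responses not without any 1 of the DMSO libraries (0.0531 to 0.0860). In the siRNA table Zeb2 was at 1.31 to 1.90 RPKM over all libraries and no comparison passed. With H2AZ siRNA and median centring, KO was higher by 0.27 (adjusted p = 0.00180), against 0.11 as deposited (adjusted p = 0.252). The share of Zeb2 in the summed level of both Zeb genes was 23.3 and 25.0% in WT DMSO, 30.5 and 30.8% in KO DMSO, 16.5 to 18.9% in WT DAC and 29.0 to 33.5% in KO DAC, and with the siRNAs 14.9 to 16.2% in WT and 18.9 to 21.9% in KO. The KO share was above the WT share in every library of the same condition, in a ratio that no library scaling changes.

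Prrx1 (ENSMUSG00000026586, chromosome 1, 163245119 to 163315145) encodes a homeobox factor of limb and craniofacial mesenchyme and of fibroblasts. It was at 48.5 and 50.2 FPKM in WT DMSO, 35.3 and 34.0 in KO DMSO, 34.7, 36.5 and 40.2 in WT DAC, and 44.5, 37.1 and 38.2 in KO DAC. The WT DMSO libraries stood above the rest, and both DAC groups overlapped. KO was lower in DMSO by -0.50 ± 0.10 (limma adjusted p = 0.00289), and in DAC the difference was 0.10 ± 0.08 (adjusted p = 0.413). DAC lowered it in WT by -0.40 ± 0.09 (adjusted p = 0.00884; 0.0722 without WT DMSO replicate 2), and in KO the change was 0.20 ± 0.09 (adjusted p = 0.101). The difference of the responses was 0.60 ± 0.12 (adjusted p = 0.00808) and passed under all 17 alternatives. With either siRNA Prrx1 was at 7.70 to 11.2 RPKM, with overlap between all groups and no call. On median centring KO was higher with NT siRNA by 0.25 (adjusted p = 0.00776), against 0.12 as deposited (adjusted p = 0.301).

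Cdh1 (ENSMUSG00000000303, chromosome 8, 106603350 to 106670247) encodes E-cadherin, the adhesion molecule of epithelial adherens junctions. It was at 0.0713 and 0.264 FPKM in WT DMSO (10 and 38 reads), 3.31 and 3.37 in KO DMSO (417 and 478 reads), 0.0811, 0.0903 and 0.0546 in WT DAC (12, 14 and 8 reads), and 0.740, 0.616 and 0.652 in KO DAC (104, 88 and 110 reads). Every KO library was above every WT library, and KO DMSO above KO DAC. On the log2 scale of the value plus 1, which understates the change of low genes, KO was above WT by 1.90 ± 0.11 in DMSO and by 0.63 ± 0.09 in DAC. Since Cdh1 was fitted only because of KO DMSO, no limma p is given for it. As a ratio of reads per library total, KO DMSO was 19.8 times WT DMSO (95% interval 13.1 to 31.2) and KO DAC 8.83 times WT DAC (5.33 to 15.6). The 2 WT DMSO libraries differ by more than that first interval allows for: KO DMSO was 12.7 times (8.01 to 21.2) replicate 2 alone and 46.9 times (19.9 to 145) replicate 1 alone. Within KO the DAC change was -1.38 ± 0.10, to 0.1998 of the DMSO level (0.165 to 0.241), with no overlap of libraries. In WT it was -0.11 ± 0.10, and the first WT DMSO library lay within the range of WT DAC. As a ratio of reads, WT DAC was 0.448 of WT DMSO (0.226 to 0.869), and 1.06 without WT DMSO replicate 2. The difference of the responses was -1.27 ± 0.15 on the log2 scale of the value plus 1. With voom, which works on proportional change but was run on the same filtered genes, it was -1.44 and did not pass, likewise a description. The summed level of 13 mesothelial markers, described further on, was likewise highest in KO DMSO (1090 to 1127 FPKM) and lower in KO DAC (126 to 149). In WT it was 10.8 to 12.9 FPKM in DMSO and 44.4 to 58.5 in DAC, higher with DAC where Cdh1 was not, and its part in the level of Cdh1 was not tested. Under siRNA, Cdh1 was below the filter and not tested. It had 5, 1 and 1 reads in WT NT, 30, 33 and 42 in KO NT, 0, 1 and 0 in WT H2AZ siRNA, and 39, 53 and 28 in KO H2AZ siRNA. KO NT was at 0.169, 0.184 and 0.201 RPKM, 15.3 times WT NT (95% interval 7.15 to 38.9; 34.6, 9.34 to 289, without WT NT replicate 1), and KO H2AZ siRNA at 0.203, 0.258 and 0.130 RPKM, against 1 read in 3 libraries of WT (ratio 104, interval 18.2 to 4126; 65.6, 11.5 to 2611, without WT H2AZ siRNA replicate 1). Within KO the ratio of H2AZ siRNA to NT siRNA was 1.05 (0.805 to 1.38). These intervals are exact and cover counting error only. In the DAC table they were computed on reads divided by 2, since even read numbers were in excess there (61.7 to 63.4% of genes with 1 to 200 reads, against 40.9 to 44.6% in the siRNA table).

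Epcam (ENSMUSG00000045394, chromosome 17, 87635979 to 87651127) encodes a surface adhesion molecule of simple epithelia. It was under the filter in both tables and was not tested. In the DAC table it was listed at 0 in both WT DMSO libraries, at 0.677 and 1.14 FPKM in KO DMSO (38 and 72 reads), at 0.0606, 0.0579 and 0.0612 in WT DAC (4 reads each), and at 0.606, 0.282 and 0.292 in KO DAC (38, 18 and 22 reads). All KO libraries were above all WT libraries. KO DMSO was at least 9.58-fold higher than WT DMSO, taking WT at a floor of 3 read pairs (6 reads) in each library. KO DAC was 6.46 times WT DAC (95% interval 2.72 to 18.7), and KO DAC was 0.420 of KO DMSO (0.271 to 0.644), or 0.571 (0.322 to 1.05) without KO DMSO replicate 2. With the siRNAs Epcam had 0, 3 and 2 reads in WT NT, 7, 11 and 14 in KO NT, 5, 8 and 2 in WT H2AZ siRNA, and 15, 19 and 27 in KO H2AZ siRNA. KO was 6.51 times WT with NT siRNA (2.52 to 21.4; 4.22, 1.63 to 13.9, without WT NT replicate 1 and 10.7, 2.72 to 91.8, without WT NT replicate 2) and 3.51 times WT with H2AZ siRNA (1.97 to 6.65). Within KO, H2AZ siRNA was 1.76 times NT siRNA (1.13 to 2.79), with no overlap of libraries. That interval took in 1 without KO NT replicate 1 (0.955 to 2.57) or KO H2AZ siRNA replicate 3 (0.905 to 2.53). In WT the same ratio was 3.26 (1.13 to 11.5) on 15 and 5 reads, and 2.11 (0.730 to 7.43) without WT NT replicate 1 or 2.37 (0.647 to 9.46) without WT H2AZ siRNA replicate 2. The promoter window of Epcam (chr17:87635729-87636028, plus strand) is shown as the one member window with 2 matches of the Snail and Zeb E-box, in capitals at bases 64 (CACCTG) and 232 (CAGGTG). A match of letters is a description, and no binding was measured.
Epcam promoter: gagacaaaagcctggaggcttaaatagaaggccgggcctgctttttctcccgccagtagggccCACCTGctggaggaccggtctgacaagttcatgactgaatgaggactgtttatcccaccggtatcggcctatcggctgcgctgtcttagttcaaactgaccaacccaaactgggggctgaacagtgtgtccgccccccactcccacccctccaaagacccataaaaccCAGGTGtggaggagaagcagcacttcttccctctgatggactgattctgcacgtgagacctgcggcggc

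**Figure D4:**
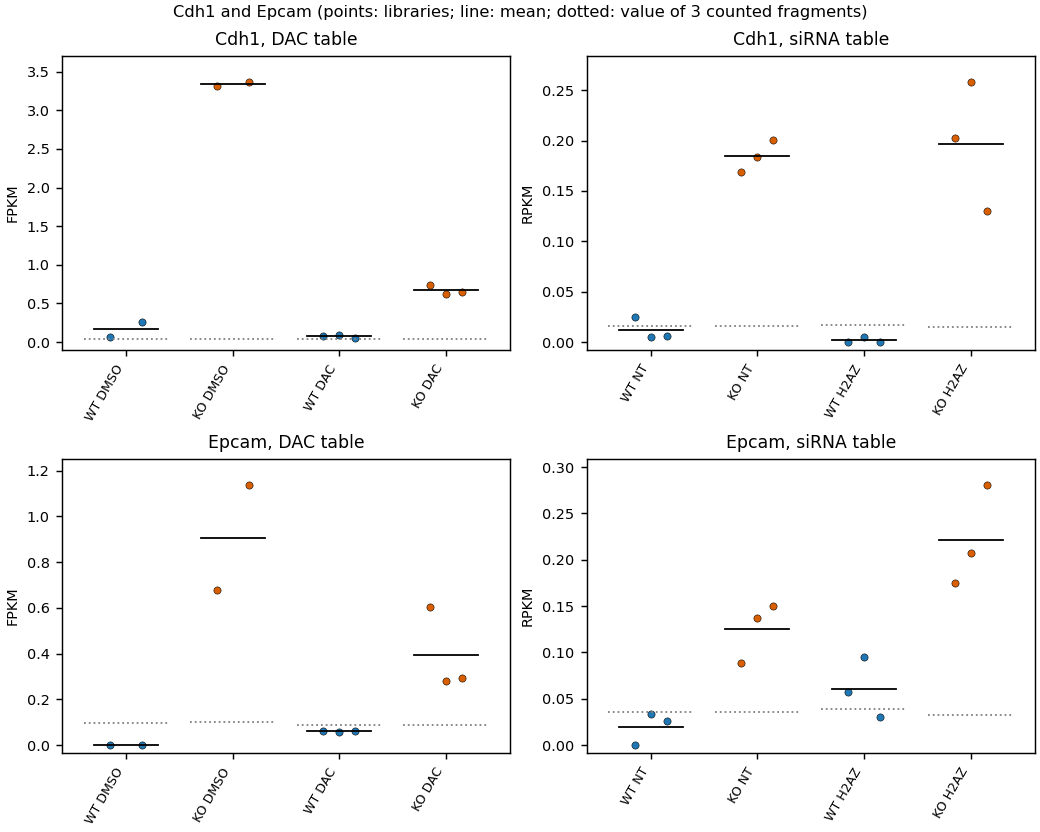
Cdh1 and Epcam at their own scale. The vertical axes give FPKM (left panels, DAC table) and RPKM (right panels, siRNA table), points are libraries (blue WT, orange KO), solid lines group means, and dotted lines the value of 3 counted fragments (6 reads in the DAC table, 3 in the siRNA table). All KO libraries of both genes lie above the dotted line, and Epcam in WT DMSO and WT DAC lies below it.

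Cdh2 (ENSMUSG00000024304, chromosome 18, 16588877 to 16809246) encodes N-cadherin. It was at 20.8 and 17.1 FPKM in WT DMSO, 23.5 and 22.3 in KO DMSO, 21.5, 20.3 and 22.2 in WT DAC, and 18.9, 17.8 and 16.1 in KO DAC. KO was above WT in DMSO and below it in DAC, and neither difference passed: 0.26 ± 0.10 (limma adjusted p = 0.0678) and -0.26 ± 0.08 (adjusted p = 0.0520). With voom both did (adjusted p = 0.0341 and 0.0185). The DMSO difference also passed without WT DMSO replicate 1 (0.40, adjusted p = 0.0217), and the DAC difference with the filter at 5 (0.0415) or without WT DMSO replicate 1 (0.0327), WT DMSO replicate 2 (0.0326) or KO DAC replicate 1 (0.0433). DAC lowered Cdh2 in KO by -0.36 ± 0.09 (adjusted p = 0.0120; 0.0855 without KO DMSO replicate 1). In WT the change was 0.16 ± 0.09 (adjusted p = 0.233), and the difference of the responses was -0.53 ± 0.13 (adjusted p = 0.0198). That difference did not pass without WT DMSO replicate 2 (0.0698), KO DMSO replicate 1 (0.0850) or KO DMSO replicate 2 (0.0522). In the siRNA table Cdh2 was at 19.1, 18.3 and 18.3 RPKM in WT NT, 12.3, 10.4 and 10.7 in KO NT, 19.7, 19.0 and 19.4 in WT H2AZ siRNA, and 12.3, 10.996 and 10.4 in KO H2AZ siRNA. Every KO library was below every WT library. KO was lower by -0.69 ± 0.07 with NT siRNA (adjusted p = 5.45e-06) and by -0.74 ± 0.07 with H2AZ siRNA (adjusted p = 3.45e-06), and by -0.57 and -0.59 on median centring. Cdh2 was thus called lower in KO with both siRNAs and was not called in DMSO, and the difference between the tables was not tested.

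Set against Cdh2, Cdh1 stayed the minor cadherin in every library. Cdh1 made up 0.341 and 1.52% of the summed FPKM of both in WT DMSO, 12.4 and 13.1% in KO DMSO, 0.246 to 0.444% in WT DAC and 3.35 to 3.89% in KO DAC. The KO libraries were above the WT libraries, and KO DMSO above KO DAC. In RPKM the share was 0.0275 to 0.129% in WT NT, 1.36 to 1.85% in KO NT, 0 to 0.0278% in WT H2AZ siRNA and 1.24 to 2.29% in KO H2AZ siRNA. Both siRNA groups overlapped in KO, and in WT they met only through libraries with 1 read.

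The genes around the members were taken from lists made by name, with earlier results of these data known. A list of 35 epithelial junction and identity genes came first. Of 18 tested in the DAC table, 10 were higher and 1 lower in KO in DMSO, beside 19.6% and 22.9% of all tested genes (median log2 fold change 0.92, against -0.04 over all tested genes). Some of the 18 passed the filter only through groups where they were high, so these counts are a description. Krt18, a keratin of simple epithelia that the mesothelial list below also holds, as it does Krt8 and Krt19, was at 22.4 FPKM in KO DMSO and 0.528 in WT DMSO (3.94 ± 0.22, limma adjusted p = 1.73e-06), and Dsg2, a desmosomal cadherin that passed the filter only through KO libraries, at 14.1 and 0.00779 FPKM. With DAC, 4 of the 18 rose and 9 fell in KO, beside 23.7% and 21.6% of all genes (median -0.31, against 0.01). In WT 14 rose and none fell, beside 14.5% and 13.8% (median 0.75, against -0.01). The difference of the responses was negative for 11 and positive for none, beside 11.7% and 12.4% (median -0.69, against 0.04). With the siRNAs 8 were tested. KO was higher for 5 and lower for 3 with NT siRNA, beside 23.7% and 40.4% of all genes (median 0.42, against -0.10), with Krt18 at 31.7 RPKM in KO NT and 3.19 in WT NT.

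Of 11 other cadherins, 4 were tested in DMSO and DAC. Cdh3, encoding P-cadherin, was higher in KO in DMSO (48.0 against 10.3 FPKM, 2.11 ± 0.08, limma adjusted p = 2.39e-07), and the other 3 were lower (19.6% and 22.9% of all genes were higher and lower), among them the mesenchymal Cdh11 (14.6 against 47.9 FPKM, -1.64 ± 0.10, adjusted p = 4.00e-06). DAC lowered Cdh3 in KO to 13.2 FPKM (-1.79 ± 0.07, adjusted p = 4.29e-07). With NT siRNA Cdh3 and Cdh11 were both higher in KO (1.14 ± 0.05 and 0.45 ± 0.08). Cdh11 was thus lower in KO in DMSO and higher with NT siRNA, in tables that were not tested against each other. Among 6 catenins tested, which tie cadherins to the cytoskeleton, 2 were higher and 1 lower in KO in DMSO, so 3 of 6 were called beside 42.5% of all genes. Jup (plakoglobin) was higher in KO in DMSO (39.6 against 14.6 FPKM, 1.38 ± 0.09, adjusted p = 3.73e-06) and in NT siRNA (10.3 against 6.32 RPKM, 0.63 ± 0.05, adjusted p = 2.57e-06).

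Of the 21 other EMT-linked factors and E protein or Id partners, 18 were tested in the DAC table, and 3 were higher and 10 lower in KO in DMSO, beside 19.6% and 22.9% of all genes (median -0.52, against -0.04). Prrx2, the paralog of Prrx1, was at 7.41 against 30.0 FPKM (-1.89 ± 0.20, limma adjusted p = 9.77e-05) and the forkhead gene Foxc1 at 6.12 against 24.4 FPKM (-1.84 ± 0.08, adjusted p = 5.77e-07). With DAC in KO, 9 rose and 5 fell, beside 23.7% and 21.6% of all genes (median 0.25, against 0.01), and in WT 5 rose and 6 fell, beside 14.5% and 13.8% (median -0.17, against -0.01). Id2, an inhibitor of basic helix-loop-helix factors, fell with DAC in WT from 56.3 to 20.2 FPKM (-1.44 ± 0.11, adjusted p = 3.94e-05). Foxc1 was also lower in KO with NT siRNA (2.84 against 6.76 RPKM, -1.01 ± 0.11, adjusted p = 9.88e-06), where 7 of 17 were higher and 8 lower, beside 23.7% and 40.4% of all genes (median -0.08, against -0.10).

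Of 30 mesenchymal genes, 29 were tested, and 6 were higher and 16 lower in KO in DMSO, beside 19.6% and 22.9% of all genes (median -0.31, against -0.04). Vcan (versican) was at 13.3 against 78.6 FPKM (-2.47 ± 0.08, limma adjusted p = 1.20e-07) and Acta2 (smooth muscle actin) at 38.0 against 195 FPKM (-2.32 ± 0.19, adjusted p = 1.79e-05). DAC raised Acta2 in KO to 149 FPKM (1.94 ± 0.17, adjusted p = 3.24e-05). With NT siRNA 11 were higher and 11 lower in KO, beside 23.7% and 40.4% (median -0.05, against -0.10). Among 22 inducing ligands and receptors, 19 were tested, and 8 were higher and 7 lower in KO in DMSO, beside the same 19.6% and 22.9% (median -0.20), with Bmp4 at 29.4 against 9.54 FPKM (1.53 ± 0.07, adjusted p = 6.72e-07) and Tgfb2 at 12.8 against 28.9 FPKM (-1.12 ± 0.09, adjusted p = 2.08e-05). All 20 corepressors and regulators of the Snail, Zeb and Twist proteins were tested, with 7 higher and 4 lower, again beside 19.6% and 22.9% (median -0.06). Kdm1a, the demethylase LSD1 that Snail recruits, was at 16.9 against 12.2 FPKM (0.44 ± 0.06, adjusted p = 0.000444).

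Markers of mesothelial cells were higher in KO than in WT, as Cdh1 and Epcam were. The summed level of 13 mesothelial markers (listed of 14, a list chosen with earlier results of these data known) was 1090 to 1127 FPKM in KO DMSO, 126 to 149 in KO DAC, 10.8 to 12.9 in WT DMSO and 44.4 to 58.5 in WT DAC. In RPKM it was 204 to 232 in KO NT, 189 to 204 in KO H2AZ siRNA, and 23.3 to 24.8 in the WT groups, so it was no higher with H2AZ siRNA than with NT siRNA in KO, where the ratio for Epcam was 1.76. Of the 13, 12 had a mean of at least 1 in each KO group and 3 to 5 in each WT group, and Wt1 and Upk1b were at 0 in both WT siRNA groups. With DAC in KO, 2 of the 13 rose and 10 fell, beside 23.7% and 21.6% of all genes. In WT 6 rose and none fell, beside 14.5% and 13.8%. Most of the 13 had WT means under 1, so some can have passed the filter only through KO groups. These counts are therefore a description. Upk3b was at 372 and 396 FPKM in KO DMSO, 29.6 to 35.1 in KO DAC and at most 2.06 in any WT library. Msln did not follow it, at means of 21.6 FPKM in KO DMSO, 23.3 in KO DAC, 5.91 in WT DMSO and 33.2 in WT DAC. Krt19 (1.97 in KO DMSO and 9.80 FPKM in KO DAC) and Krt8 (0.223 and 2.92 FPKM) were higher with DAC in KO. The sum of 12 markers of surface epithelia, other than the members, was 5.81 to 6.60 FPKM in KO DMSO, 1.65 to 1.82 in WT DMSO, 4.77 to 5.82 in WT DAC and 5.20 to 6.29 in KO DAC, with at most 2 of the 12 at a mean of 1 or more and Krt5 at 0 in KO DMSO. In RPKM it was 0.996 to 1.60 in KO and 1.81 to 2.79 in WT, so it moved against Cdh1 there. The part of these markers in the members' differences was not tested. Fibroblast markers summed to 3395 to 3519 FPKM in WT DMSO, 2066 to 2101 in KO DMSO, 2239 to 2399 in WT DAC and 1842 to 2041 in KO DAC, and in RPKM to 1663 to 1769 in WT and 2268 to 2511 in KO. The first principal component of all tested genes of the DAC table (46.7% of the variance) set both KO DMSO libraries, at 66.8 and 66.2, apart from the other 8, which lay between -29.9 and -1.88.

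Likeness of pattern was described as Pearson's r of log2 values over 22 libraries, with each table centred on its own mean, among 7657 genes tested in both tables with a mean of at least 5 in 1 of them, predicted genes left out. The libraries share groups and scaling, so r is a description. The genes most like Zeb1 were Glrx (r = 0.952), Zdhhc9 (0.938) and Pde4d (0.936). Most like Cdh2 were Hdlbp (0.968), Osbpl3 (0.959) and Tm9sf2 (0.953). Prrx1 was nearest to Afap1 (0.894), Gli3 (0.869) and Pogz (0.865), and Snai2 shared 2 of these 3, with Gli3 at 0.866, Bgn at 0.850 and Afap1 at 0.850. For Snai1 the nearest were Suds3 (0.905), Cyc1 (0.887) and Prpf19 (0.876), for Twist1 Ap3d1 (0.913), Nt5dc3 (0.889) and Sdc1 (0.880), and for Twist2 Erg28 (0.909) and Glis3 (0.887). Zeb2 had the weakest neighbours, Diaph2 (0.834), Antxr2 (0.795) and Dtl (0.742). Between members, r was highest for Snai2 with Prrx1 (0.755) and lowest for Snai1 with Cdh2 (-0.670), and the paralogs stood at -0.300 (Snai1 with Snai2), 0.589 (Twist1 with Twist2) and -0.217 (Zeb1 with Zeb2).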

How the data were processed

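RNA-seq of 22 libraries was analysed, and 31 CUT&Tag samples were not used here. The authors deposited FPKM for the DAC libraries and RPKM for the siRNA libraries. Tools named in the submitters' processing notes are deepTools, Bowtie2 and STAR, with the mm10 build. For their versions, the counter, the annotation and the scaling total, the entry is: not given in the sources used here. Per the labels' protocols the kit was stranded, with paired ends; the strand setting of the counter is likewise unstated.

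Whole reads were recovered from the steps between values (100% of values for 35023 genes, tolerance 0.001) and gave totals, gene lengths and read numbers. One read in 1 kb was worth 0.0271 to 0.0364 FPKM and 0.0212 to 0.0313 RPKM. Genes at 1 or more in at least 2 (DAC table) or 3 (siRNA table) libraries were tested with limma 3.58.1 (R 4.3.3) on log2(value + 1), 1 fit per table with 4 groups, an intensity trend and Benjamini-Hochberg adjustment over all genes tested. "Called", "rose", "fell", "higher" and "lower" mean an adjusted p under 0.05 (two-sided). Fold changes on this scale understate those of low genes. The fit was also run on simulated reads with the same setting of spread for all genes, which is simpler than these data. That run checks the code and is no support for the calls. Other steps used Python 3.11.15, numpy 2.4.6, pandas 2.3.3, scipy and matplotlib 3.10.9.

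All 10 members are named. From each list, up to 2 higher and 2 lower called genes per comparison could be named, if the higher group's mean reached 5 and the groups' libraries did not overlap. The text prints part of these, and 3 genes per member were named for likeness, of which 1 is not reported here. Same-numbered KO NT and KO H2AZ siRNA libraries deviated together from their group means over all tested genes (correlations 0.156, 0.144 and 0.270). They were taken as pairs only in the alternatives with a replicate block, and the main fit has no block. No other 2 groups with 3 numbers had every correlation over 0.1. Members and lists were chosen with earlier results of these data known. Gene positions and promoters are from RefSeq (GRCm38.p6, the base of mm10). Alternatives were another pseudocount, other filters, median centring, the replicate number as a block, only the groups compared, voom, chromosome medians and leaving out libraries.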

Additional observations from a re-analysis of the deposited data

Results flagged for a closer look

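For 6 of the 8 members tested in the DAC table, Cdh1 left out, the response to DAC differed between KO and WT. This was by limma's test of the difference itself, which called 24.1% of all tested genes. The differences, KO minus WT on the log2 scale of the value plus 1, were 0.82 for Snai2, 1.08 for Twist1, 0.61 for Twist2, 0.62 for Zeb2 and 0.60 for Prrx1. It was -0.53 for Cdh2. For Cdh1 it was -1.27, but Cdh1 entered the fit only through KO DMSO. With voom, run on the same filtered genes, the value was -1.44, which did not pass. For Twist1 the responses had opposite signs in both genotypes and both passed. Of 17 alternatives, the call of the difference was lost under 11 for Twist2, 7 for Snai2, 4 for Zeb2 and 3 for Cdh2. Twist1 and Prrx1 kept it under all 17.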

How the results depend on the processing

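The counts here include Cdh1, which entered the fit of the DAC table only through KO DMSO. Of 85 member values with a test, 32 were called. None of the 32 reversed under any alternative, 16 kept the call under every alternative with a test and 16 lost it under at least 1. Of the uncalled values, 11 gained a call somewhere, and an uncalled value changed sign without a call in 33 cases. Members called with DAC in WT fell from 4 to 2 with only the groups compared. With H2AZ siRNA in KO, 0 became 2 on median centring (Zeb1 and Zeb2) and 1 without both libraries that stand apart (Zeb1). Leaving out 1 library in turn gave 5 to 8 members called for KO against WT in DMSO, 2 to 4 in DAC, 3 to 4 with NT siRNA and 2 to 3 with H2AZ siRNA. It gave 0 to 4 for DAC in WT (0 without WT DMSO replicate 2), 1 to 6 for DAC in KO (1 without KO DMSO replicate 1), 2 to 7 for the difference of the DAC responses (2 without either KO DMSO library) and 0 to 1 for H2AZ siRNA in KO. Each fit without a DMSO library rests on a lone sample assumed to vary like the other groups. The count of all genes called fell there too: 4658 to 2389 for DAC in WT without WT DMSO replicate 2, 7431 to 4890 for DAC in KO without KO DMSO replicate 1, and 3960 to 2275 or 2385 for the difference without KO DMSO replicate 1 or 2. Without either KO DMSO library Cdh1 was under the filter and gave no value. The cause was not tested.

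Replicate numbers were taken to pair libraries only between KO NT and KO H2AZ siRNA. There the block, with all groups or only these groups (chosen after seeing the data), called 0 members. Elsewhere no pairing was assumed. Over all pairs of groups, deviations of same-numbered libraries correlated over 0.1 in 1 of 13 pairs in the DAC table and 6 of 18 in the siRNA table. The highest of these was 0.3185, for WT NT replicate 1 with KO NT replicate 1. Differently numbered libraries correlated over 0.1 in 3 of 24 pairs in the DAC table and 7 of 36 in the siRNA table. Their highest was 0.3456, for WT DAC replicate 3 with KO DAC replicate 1, the libraries of the DAC table that stood apart. With the replicate block, 6, 3, 3, 4 and 5 members were called in the comparisons of the DAC table (KO against WT in DMSO and in DAC, DAC in WT and in KO, and the difference), and 4, 3, 0, 0 and 0 in the siRNA table. The calls it ended were Twist1 for DAC in WT (adjusted p = 0.0554), Zeb1 for DAC in KO (0.104), and Snai2 (0.0526) and Twist2 (0.0852) for the difference. With only the groups compared, 2093 genes in place of 3235 were called for H2AZ siRNA in KO (2130 without KO H2AZ siRNA replicate 2), and in WT 1933 became 1127 to 1286 without any 1 WT H2AZ siRNA library. The 1 gene called for the difference of the siRNA responses became 2 or 3 under 7 alternatives. Leaving out libraries in the read ratios of Cdh1 and Epcam was also chosen after seeing the data. Depth limited Cdh1 in WT and Epcam throughout, at 0 to 72 reads per library.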
